A study of Mus musculus with 18 samples.

Results

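Morphologically big cells sorted from cultures that had regrown after senescence-inducing treatment were compared with the treated cultures themselves. The comparison took 6 of the 18 samples of the study, 3 named big outgrowth and 3 taken at the end of treatment, and matched them by the number of the lymphoma they came from, 4146, 4936 or 5043. It ran over all genes; where a gene had several probe sets, that of highest mean level across the 17 arrays with values stood for it.

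The cells were primary B-cell lymphomas explanted from lymph nodes of mice on a C57/Bl6 background that carry Eµ-myc, a Myc transgene under an immunoglobulin enhancer active in B cells. All 6 samples, and every other sample of the study, lacked Suv39h1, a methyltransferase of lysine 9 of histone H3. All carried 2 retroviral transgenes, an apoptosis-blocking Bcl2 and Suv39h1-ERT2, in which Suv39h1 is fused to a receptor domain and becomes active with 4-hydroxytamoxifen (4-OHT). The big outgrowth group (n = 3) had received Adriamycin (ADR), a DNA-damaging drug, with 4-OHT for 5 days, was then kept for 14 days in medium without either compound and was sorted for big cells by flow cytometry. The ADR+4-OHT 5 d group (n = 3) was taken after 5 days of the same treatment. Small outgrowth cells (n = 3) came from the same kind of culture as the big ones, and untreated cells (n = 3) received neither compound. ADR 5 d cells (n = 3) had received ADR for 5 days without 4-OHT. These groups are used below to place the levels. The labels mention a sort for the outgrowth cells and none for the ADR+4-OHT 5 d cultures, so that the drug-free days and the sort cannot be told apart in this comparison. Each lymphoma gave 1 array a group, and the cells were retrovirally transduced populations, not untouched tumours.

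Senescence is a lasting arrest of the cell cycle that can follow oncogene activity or DNA damage. Methylation of lysine 9 of histone H3 at growth-promoting genes is among the mechanisms known to hold Myc-driven lymphoma cells in that arrest. Arrested cells often swell, enlarge their lysosomes and secrete cytokines and matrix proteins. Genes of mitosis are silenced in arrested cells by the DREAM complex, which sits on a short promoter element, the cell cycle genes homology region (CHR), often with CCAAT boxes bound by NF-Y nearby.

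The mitosis list had the most rising members of 27 gene lists, so the promoters of the 4 with the largest change that hold a CHR are shown here, together with that of Rsad2, an antiviral gene that fell. Each runs 5′ to 3′ on the strand of the gene, from 250 bases before to 50 bases after the transcription start (RefSeq, GRCm38.p6). Capitals mark, in the mitotic genes, TTTGAA (the CHR) or CCAAT on either strand, and in Rsad2 the interferon-stimulated response element (GAAA, any 2 bases and GAAA) on either strand. The windows are chr19:37376132-37376431 (plus strand) for Kif11, chr9:22389157-22389456 (minus) for Anln, chr7:122159185-122159484 (plus) for Plk1, chr9:61946750-61947049 (minus) for Kif23 and chr12:26456403-26456702 (minus) for Rsad2.
Kif11: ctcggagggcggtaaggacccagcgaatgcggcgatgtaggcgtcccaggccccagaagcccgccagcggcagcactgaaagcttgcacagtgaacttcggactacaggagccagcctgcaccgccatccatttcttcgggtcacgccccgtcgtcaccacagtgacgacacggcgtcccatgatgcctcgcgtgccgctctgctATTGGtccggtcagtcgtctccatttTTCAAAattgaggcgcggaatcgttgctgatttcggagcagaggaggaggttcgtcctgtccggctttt
Anln: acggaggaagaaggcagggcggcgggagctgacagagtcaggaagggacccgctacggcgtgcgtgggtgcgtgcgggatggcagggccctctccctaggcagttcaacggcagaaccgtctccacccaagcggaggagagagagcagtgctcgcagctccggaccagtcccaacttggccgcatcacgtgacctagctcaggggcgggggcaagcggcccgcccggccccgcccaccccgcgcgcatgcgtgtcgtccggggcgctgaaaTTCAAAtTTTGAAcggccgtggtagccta
Plk1: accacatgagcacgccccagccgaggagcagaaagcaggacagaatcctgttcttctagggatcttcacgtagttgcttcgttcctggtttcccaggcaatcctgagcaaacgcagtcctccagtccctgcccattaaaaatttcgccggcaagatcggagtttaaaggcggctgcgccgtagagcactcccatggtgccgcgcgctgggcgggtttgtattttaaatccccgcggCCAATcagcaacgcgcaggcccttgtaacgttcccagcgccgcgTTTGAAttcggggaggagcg
Kif23: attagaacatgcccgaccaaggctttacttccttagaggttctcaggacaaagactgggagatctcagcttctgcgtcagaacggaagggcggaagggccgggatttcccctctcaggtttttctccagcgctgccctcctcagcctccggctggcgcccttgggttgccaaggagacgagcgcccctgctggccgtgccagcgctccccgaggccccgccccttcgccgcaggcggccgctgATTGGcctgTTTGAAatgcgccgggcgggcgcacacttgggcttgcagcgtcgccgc
Rsad2: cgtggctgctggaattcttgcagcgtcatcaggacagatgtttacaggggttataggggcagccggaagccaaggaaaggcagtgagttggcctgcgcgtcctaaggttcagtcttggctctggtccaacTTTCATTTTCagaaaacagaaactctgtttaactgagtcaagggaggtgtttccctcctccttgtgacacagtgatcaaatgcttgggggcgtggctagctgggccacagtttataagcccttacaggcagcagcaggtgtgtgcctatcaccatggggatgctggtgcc

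The CHR stood in 26 of the 39 mitosis list genes with a promoter sequence (66.7%), against 11.6% of the 9647 tested genes with one and 18.1% of all 27025 promoters. CCAAT was in 29 of the 39 (74.4%), against 38.5% of the tested genes and 37.9% of all promoters, and both motifs were in 22 (56.4%), against 4.85% and 7.12%. Among the 13 mitotic genes that rose and had a sequence, 9 held the CHR (69.2%) and 10 held CCAAT (76.9%), shares close to those of the whole list. The E2F letters TTTCCCGC or TTTGGCGC were in 0 of the 39, against 3.11% of the tested genes. The interferon element was in 10 of the 22 interferon list genes with a sequence (45.5%), against 3.01% of the tested genes. A match is a run of letters in a window and is not a measured binding site.

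Before any comparison, some arrays stood apart. Differences in level between lymphomas had been taken out before deposit. Values of different lymphomas are therefore compared here and below only relative to each lymphoma's own median. On the axis of largest variation over all 17 arrays, which held 33.6% of the variance, the big outgrowth of 5043 scored 66.32, the small outgrowth of 5043 scored 58.47 and ADR 5 d of 4936 scored 66.81, and the other arrays scored at most 5.94. Xist, the RNA that silences an X chromosome in female cells, had log2 values of 7.85, 8.99 and 12.26 in the big outgrowth of 4146, 4936 and 5043, against 2.78, 6.34 and 5.55 in ADR+4-OHT 5 d. The array labelled ADR+4-OHT 5 d of 4146 was also at 6.71 for Atg3, an autophagy enzyme, where the other 5 arrays compared were between 10.11 and 10.39. Eif2s3y, a Y-linked gene looked at after its values were seen, was at 4.06, 5.88 and 3.01 in the big outgrowth of 4146, 4936 and 5043 and between 2.64 and 3.86 on the other 14 arrays. The other Y-linked genes looked at lay within the range of the other arrays: Kdm5d was at 3.27, 3.27 and 3.46 in the big outgrowth and between 3.07 and 3.68 elsewhere, and Uty at 3.0, 3.03 and 3.05 and between 2.77 and 3.35 elsewhere. Calls were therefore also made without the big outgrowth of 5043, and without it and ADR+4-OHT 5 d of 4146 together. Of the 46 genes chosen by the naming rule that passed, 14 passed without the big outgrowth of 5043, namely Lgals3, Bgn, Efemp1, Fn1, Anxa2, Rpl39l, Emp1, Cav1, Ms4a4b, Cyria, Cenpp, Pold2, Klf4 and Cd34. Without both arrays 4 passed, Kif11, Anln, Aurkb and Klf4. Klf4 and Cd34 were in the test only through their big outgrowth values, and the filter was not redone when arrays were left out. As a sign of RNA quality, the 3′ minus 5′ difference of the Actb control was 1.5, 1.76 and 1.6 in big outgrowth, against 1.51, 1.17 and 1.28 in ADR+4-OHT 5 d, and that of Tfrc was 2.46, 3.36 and 2.86, against 2.72, 1.93 and 1.31. Both were larger in big outgrowth in 4936 and 5043 and not in 4146. The mitotic changes described below were also larger in 4936 and 5043 than in 4146, and the part of RNA quality in them was not tested. Suv39h1 and Trp53 were not analysed here.

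Of 11897 genes tested, 238 (2.0%) were higher and 240 (2.02%) were lower in big outgrowth than in ADR+4-OHT 5 d (limma with lymphoma as a block, Benjamini-Hochberg adjusted p under 0.05). The rising genes moved further: 158 of them changed at least 2-fold, against 97 of the falling ones. Of the genes tested, 268 passed the filter on low values only with the big outgrowth arrays and so had to be high there. They held 27 of the higher calls and 0 of the lower ones, and the part of the filter in the larger rises was not tested. All 478 had the same sign in the 3 lymphomas and groups that did not overlap. Over all tested genes 46.4% had one sign in the 3 lymphomas and 35.8% did not overlap. The median change of all genes was -0.01 on the log2 scale, the scale of every change below unless a fold is given. The calls depended on single arrays. They became 53 higher and 11 lower without the big outgrowth of 5043, 54 and 8 also without ADR+4-OHT 5 d of 4146, and 28 and 35 without the big outgrowth of 4146. Without the big outgrowth of 4936, or without ADR+4-OHT 5 d of 4936 or of 5043, there were 0 and 0 in limma, with 2190, 2106 and 2161 genes at an unadjusted p under 0.05, against 2782 with all arrays. The test pools its spread over all groups, and each comparison rests on 3 lymphomas.

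**Figure D1:**
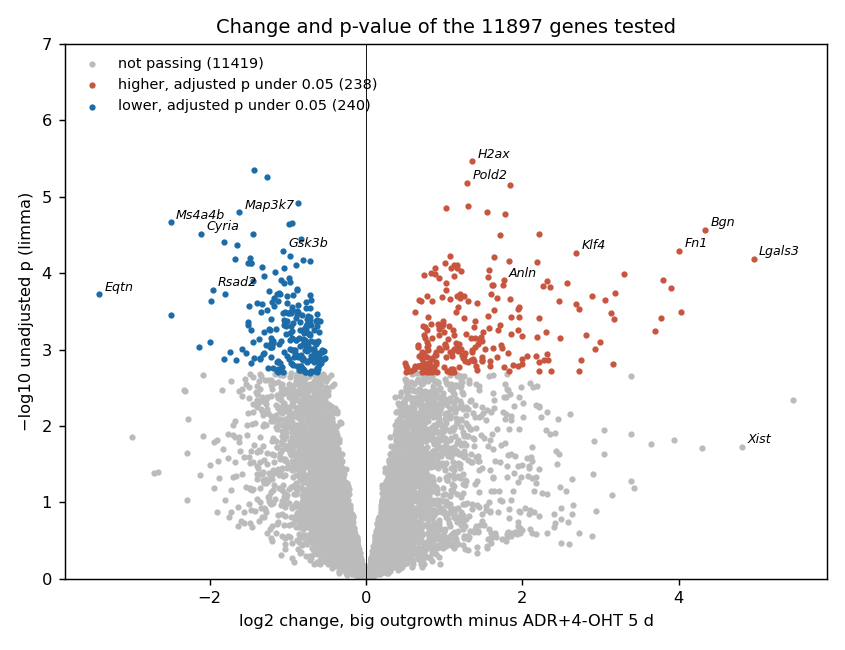
Log2 change (big outgrowth minus ADR+4-OHT 5 d, x axis) and −log10 unadjusted p from limma (y axis) of the 11897 genes tested, each point a gene. The 238 genes that passed as higher reach 4.96 (Lgals3), and the 240 that passed as lower reach -3.41 (Eqtn); Xist, at 4.81, did not pass.

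**Figure D2:**
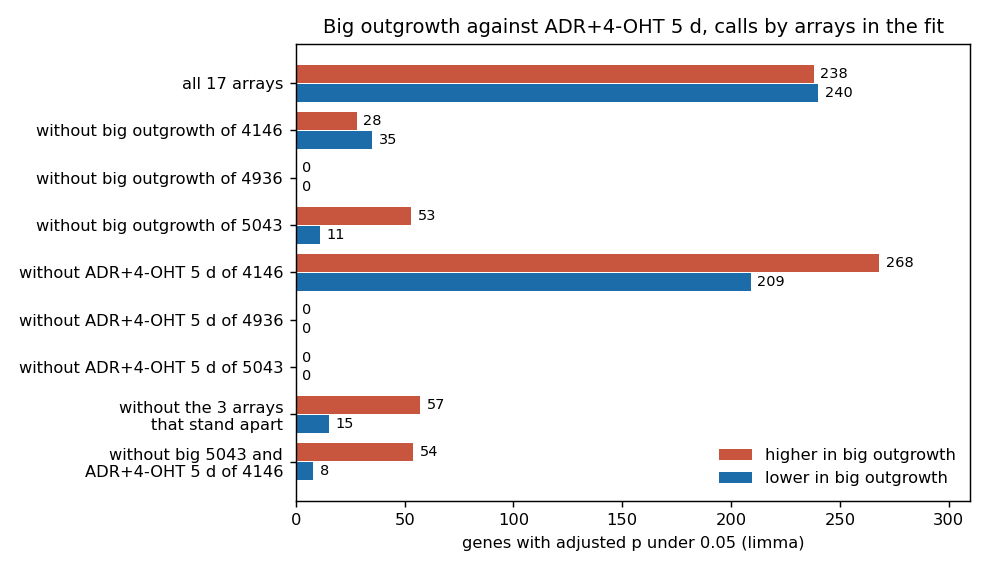
Number of genes with adjusted p under 0.05 (x axis, from 0) as higher or lower in big outgrowth, with all 17 arrays and with arrays of the comparison left out. The counts fall to 0 and 0 without the big outgrowth of 4936, without ADR+4-OHT 5 d of 4936 or without ADR+4-OHT 5 d of 5043, and are 268 and 209 without ADR+4-OHT 5 d of 4146, where 258 of the 478 genes called with all arrays were called.

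The largest rises were those of Lgals3, Bgn, Efemp1 and Fn1, and 3 of the 12 largest belonged to the fibroblast and matrix list. Lgals3, the secreted lectin galectin-3, had log2 values of 9.72, 12.41 and 9.48 in big outgrowth of 4146, 4936 and 5043, against 4.89, 6.08 and 5.77 in ADR+4-OHT 5 d. Every big outgrowth array was above every ADR+4-OHT 5 d array, and the change was 4.96 ± 0.81 (SE), or 31.1-fold (adjusted p = 0.022). The gene lies at chr14:47373860-47386167 (GRCm38.p6). Bgn, the matrix proteoglycan biglycan, had 10.81, 12.01 and 10.65 in big outgrowth and 6.39, 7.48 and 6.56 in ADR+4-OHT 5 d, a change of 4.34 ± 0.65 (adjusted p = 0.02). Fn1, fibronectin, had 10.76, 11.84 and 10.37 in big outgrowth and 6.30, 7.68 and 6.94 in ADR+4-OHT 5 d, a change of 4.01 ± 0.64 (adjusted p = 0.022). In both genes the groups lay more than 2 log2 units apart, and lymphoma 4936 was highest in each group on these values relative to its own median.

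Col1a2, a chain of type I collagen, had 10.03, 11.03 and 8.92 in big outgrowth, against 4.79, 7.13 and 6.74 in ADR+4-OHT 5 d (change 3.77 ± 0.76, adjusted p = 0.0299). The other large rises were 4.03 for Efemp1, a fibulin of the matrix, 3.90 for Anxa2 and 3.17 for Anxa3, membrane-binding annexins, and 3.80 for Rpl39l, a ribosomal protein paralog. They also included 3.70 for Cpe, a carboxypeptidase of secretory granules, 3.30 for Emp1, an epithelial membrane protein, 3.18 for Cav1, the coat protein of caveolae, and 3.16 for Rhoc, a small GTPase of cell motility. Anxa3 was under 4.86, the median of all values, on all ADR+4-OHT 5 d arrays, which leaves a rise of at least 2.51. It was in the test only through its big outgrowth values. The calls of Lgals3, Bgn, Efemp1, Fn1, Anxa2, Rpl39l, Emp1 and Cav1 held without the big outgrowth of 5043 (adjusted p from 0.0304 to 0.0343), and those of Col1a2, Cpe, Anxa3 and Rhoc did not. None of these 12 passed without both doubtful arrays, where Lgals3, Bgn, Fn1 and Emp1 changed by 5.46, 4.37, 3.80 and 3.74. Rhoc was high in the small outgrowth of 5043 too, at 9.17, against 6.24 and 6.09 in the small outgrowth of 4146 and 4936. In ADR 5 d of 4146, 4936 and 5043, Lgals3 was at 7.62, 8.86 and 7.95 and Bgn at 8.84, 10.13 and 8.51. Col1a2 was at 8.56, 10.51 and 8.41 there. All these values lay above every ADR+4-OHT 5 d array of the same gene. Fn1 (7.31, 8.36 and 7.42) and Rhoc (6.35, 7.62 and 6.30) overlapped with ADR+4-OHT 5 d. ADR 5 d of 4936 is among the arrays that stood apart.

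The fibroblast and matrix list had 13 tested members of 23 measured, of which 6 rose, 0 fell and 7 did not pass, with a median change of 1.80. The risers beside Bgn, Fn1 and Col1a2 were Dcn, the proteoglycan decorin (2.75 ± 0.66, adjusted p = 0.0432), Col5a2, a type V collagen chain (2.33, adjusted p = 0.0434), and Pdgfra, a growth factor receptor of mesenchymal cells (1.22, adjusted p = 0.0225). Among members that did not pass, Sparc was at 3.39 (adjusted p = 0.0517), Vim at 0.82 and Acta2 at -0.16. Of the 13, 2 passed the filter on low values only with the big outgrowth arrays and so had to be high there. The list's median was 2.50, 2.10 and 0.90 in 4146, 4936 and 5043. It stayed at 2.06 without the big outgrowth of 5043 (4 rose) and at 1.93 without both doubtful arrays (1 rose). Its mean level was 6.29, 6.92 and 5.95 in big outgrowth, 4.86, 5.30 and 5.15 in ADR+4-OHT 5 d and 4.75, 4.59 and 4.89 in untreated cells.

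Col1a1, another chain of type I collagen, was at 5.18, 4.58 and 4.48 in big outgrowth, against 4.29, 4.49 and 4.32 in ADR+4-OHT 5 d, under 4.86 on 5 of the 6 arrays. B-cell markers were measured in both groups and none passed. Cd79b, a part of the B-cell receptor, had 10.76, 10.59 and 11.06 in big outgrowth and 11.15, 11.09 and 10.85 in ADR+4-OHT 5 d. Ms4a1, the surface protein CD20, had 5.02, 5.78 and 7.97 in big outgrowth and 6.69, 7.05 and 5.75 in ADR+4-OHT 5 d, and Cd79a, the partner of Cd79b, had 6.86, 6.71 and 7.68 in big outgrowth and 7.86, 7.06 and 7.23 in ADR+4-OHT 5 d. Cd79b, Ms4a1 and Cd79a changed by -0.23, -0.24 and -0.30, and the further markers Ebf1 and Blnk by -0.28 and -0.33. Cd22 and Pax5 went the other way, by 0.78 and 0.20. Cd22 had 10.18, 9.51 and 9.84 in big outgrowth and 8.92, 8.73 and 9.55 in ADR+4-OHT 5 d. Of the 24 tested members of the B-cell list, 8 changes were above 0 and 16 below 0. The mean of the B-cell list ran from 7.80 to 7.94 in big outgrowth and from 7.93 to 8.07 in ADR+4-OHT 5 d. Among bulk samples, a few cells of another type and a low level in every lymphoma cell cannot be told apart, nor can fewer cells of a type and less RNA per cell. The mean of the fibroblast and matrix list and Eif2s3y were both highest in the big outgrowth of 4936, where Kdm5d and Uty were not raised, and the part of another cell type in the rise was not tested.

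**Figure D3:**
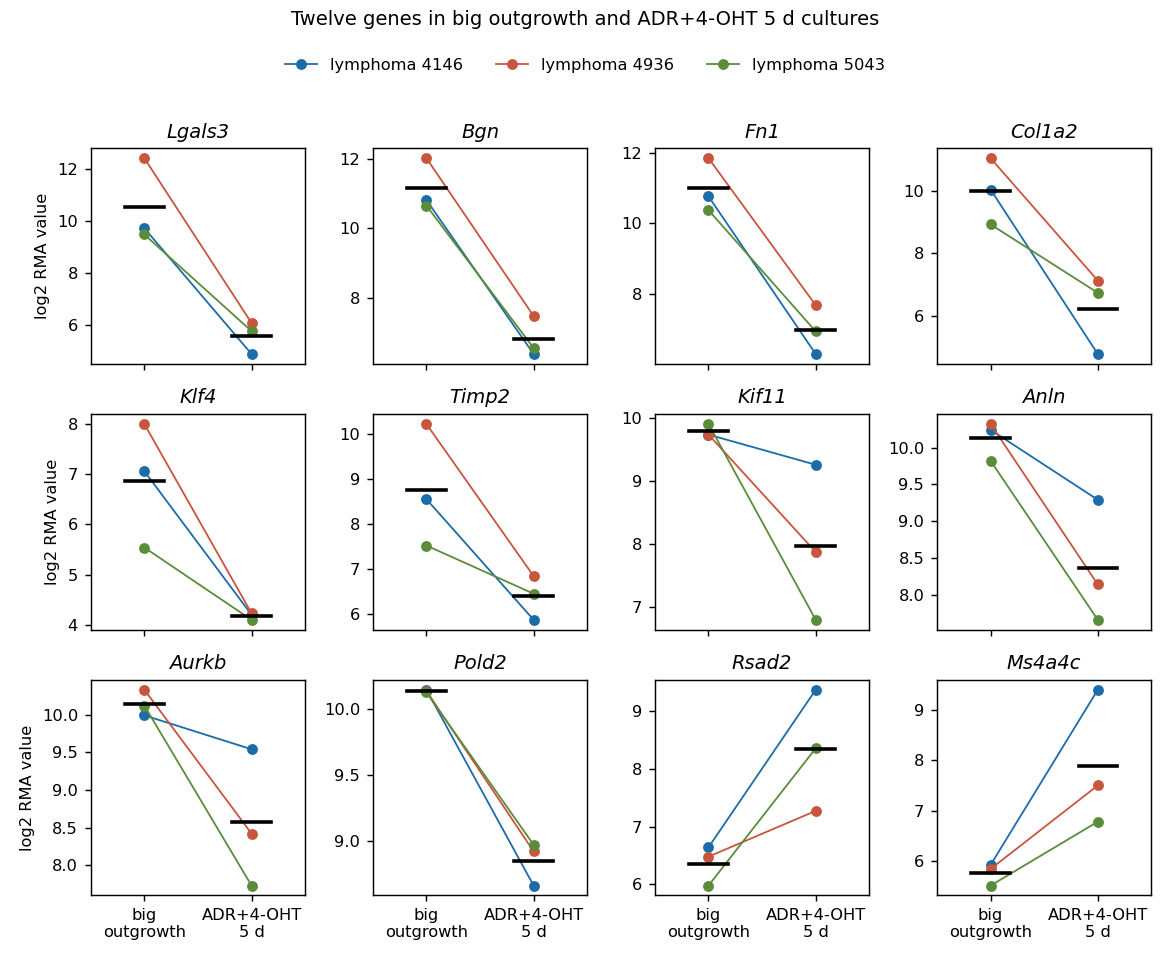
Deposited log2 RMA values (y axis, scaled per gene) of 12 genes in big outgrowth (left) and ADR+4-OHT 5 d (right); each line joins the 2 arrays of a lymphoma and the black bars are group means (n = 3). In each of the first 10 genes all big outgrowth arrays lie above all ADR+4-OHT 5 d arrays, and in Rsad2 and Ms4a4c all lie below.

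Of the 48 tested members of the mitosis and kinetochore list, 16 rose, 0 fell and 32 did not pass, and 37 of 48 had groups that did not overlap, beside 35.8% of all genes. The median change of the list was 1.08, and all 48 fitted changes were above 0, beside 48.7% of all genes. Kif11, the kinesin that separates spindle poles, had 9.74, 9.74 and 9.91 in big outgrowth, against 9.26, 7.87 and 6.79 in ADR+4-OHT 5 d (change 1.82 ± 0.42, adjusted p = 0.0405). Anln, an anillin of the cleavage furrow, had 10.24, 10.32 and 9.82 in big outgrowth, against 9.29, 8.14 and 7.66 in ADR+4-OHT 5 d (1.76 ± 0.31, adjusted p = 0.0237). The big outgrowth values of both genes lay close together, and the spread was in ADR+4-OHT 5 d, where 4146 was highest.

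Aurkb, the kinase of the chromosomal passenger complex, had 9.99, 10.33 and 10.12 in big outgrowth, against 9.54, 8.42 and 7.73 in ADR+4-OHT 5 d (1.58 ± 0.33, adjusted p = 0.0322). Cenpp, a kinetochore protein, had 7.56, 8.31 and 8.04 in big outgrowth and 6.19, 6.30 and 6.29 in ADR+4-OHT 5 d, and here the 3 lymphomas differed little (1.71 ± 0.26, adjusted p = 0.02). The other 12 risers ran from 0.81 for Mad2l1, a spindle checkpoint protein, to 1.49 for Ska1, a microtubule-binding kinetochore protein. They included Plk1, a mitotic kinase, at 1.48, Kif23, a kinesin of cytokinesis, at 1.38, Ube2c, a ubiquitin enzyme of the anaphase-promoting complex, at 1.38, Ccnb2, a mitotic cyclin, at 1.26, and Cdc20, an activator of that complex, at 1.0. Mki67, the proliferation antigen Ki-67, had 11.51, 11.90 and 11.34 in big outgrowth and 11.35, 10.11 and 9.92 in ADR+4-OHT 5 d, a change of 1.13 that did not pass (adjusted p = 0.0969).

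The list's median was 0.29 in 4146, 1.26 in 4936 and 1.74 in 5043. Without the big outgrowth of 5043 it was 1.09 and only Cenpp passed, and without that array and ADR+4-OHT 5 d of 4146 it was 1.51 and 17 passed, among them Kif11, Anln and Aurkb. The mean level of the list was 9.72, 9.94 and 9.74 in big outgrowth, against 9.76, 10.10 and 9.96 in untreated cells, and the median of the difference between those groups was -0.11.

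**Figure D4:**
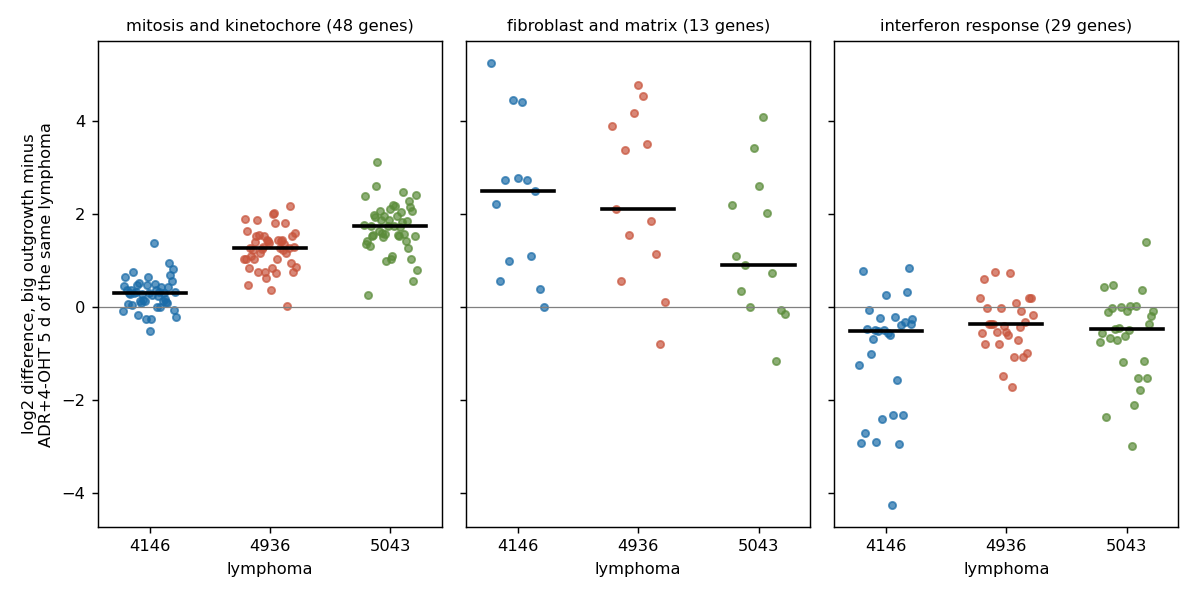
Log2 difference between big outgrowth and ADR+4-OHT 5 d of the same lymphoma (y axis) for each tested member of 3 lists, by lymphoma (x axis); bars are medians. The mitosis list has medians of 0.29, 1.26 and 1.74 in 4146, 4936 and 5043, the fibroblast and matrix list 2.50, 2.10 and 0.90, and the interferon list -0.51, -0.38 and -0.48.

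The replication and repair lists had smaller medians than the mitosis list. In the DNA replication list 2 of 48 rose and 0 fell, beside 2.0% and 2.02% of all genes. Its median was 0.24 (-0.43, 0.53 and 0.73 in 4146, 4936 and 5043). Pold2, a subunit of DNA polymerase delta, had 10.15, 10.14 and 10.13 in big outgrowth, against 8.66, 8.92 and 8.97 in ADR+4-OHT 5 d (1.29 ± 0.17, adjusted p = 0.0165), and it passed without the big outgrowth of 5043 as well (adjusted p = 0.0304). Rfc4, part of the clamp loader, changed by 1.27 ± 0.31 (adjusted p = 0.0437). The replication list lay below untreated cells, with a median difference between big outgrowth and untreated of -0.65. The recombination and crosslink repair list of 27 tested genes had a median of 0.43 (-0.16, 0.68 and 0.72 in 4146, 4936 and 5043).

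Of the G1 and E2F genes, 1 of 29 rose, beside 2.0% of all genes. It was E2f5, a repressive E2F (1.17 ± 0.26, adjusted p = 0.0389, and 0.166 without the big outgrowth of 5043). Cdkn2a, which encodes the senescence effectors p16 and p19, had 6.68, 8.61 and 9.12 in big outgrowth and 6.46, 7.80 and 3.21 in ADR+4-OHT 5 d, a change of 2.31 ± 1.91 that did not pass (adjusted p = 0.502). Cdkn1a, encoding the p53-induced inhibitor p21, had 13.33, 12.58 and 11.34 in big outgrowth and 12.21, 12.87 and 13.20 in ADR+4-OHT 5 d, with overlapping groups (-0.34 ± 0.77, adjusted p = 0.825). Of the p53 targets 0 of 30 rose and 1 fell, beside 2.0% and 2.02% of all genes. The falling one was Xpc, a DNA damage sensor (-0.60 ± 0.14, adjusted p = 0.0418, and 0.13 without the big outgrowth of 5043). The p53 list's median of -0.40 came from 0.25, -0.12 and -1.43 in 4146, 4936 and 5043 and was 0.14 without the big outgrowth of 5043.

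The secretory, lysosome, autophagy and apoptosis lists had 1 call each. That is near the share over all tested genes, of which 2.0% were higher and 2.02% lower in big outgrowth. The ADR+4-OHT 5 d group was itself taken at the end of senescence-inducing treatment. In the secretory list 1 of 25 tested members rose, Timp2, an inhibitor of metalloproteinases that is also a matrix gene, with 8.56, 10.23 and 7.53 in big outgrowth and 5.88, 6.85 and 6.46 in ADR+4-OHT 5 d (2.37 ± 0.59, adjusted p = 0.0495). The median of that list was 0.01, beside -0.01 for all genes. Its median difference was 1.30 between big outgrowth and untreated cells and 1.03 between big and small outgrowth. For the lysosome list the median difference from untreated cells was 0.46. The lysosome list had 0 of 38 higher and 1 lower, Gusb, a lysosomal glucuronidase (-1.20 ± 0.27, adjusted p = 0.0389). The autophagy list had 0 of 26 higher and 1 lower, Pik3c3, a lipid kinase of autophagosome formation (-0.63 ± 0.13, adjusted p = 0.0288). The apoptosis list also had 1 of 22 lower, Apaf1, the apoptosome scaffold (-1.23 ± 0.26, adjusted p = 0.0322). Without the big outgrowth of 5043 Timp2, Gusb, Pik3c3 and Apaf1 did not pass (adjusted p = 0.096, 0.126, 0.126 and 0.129). Myc and Bcl2, both carried as transgenes, changed by -0.11 (adjusted p = 0.848) and 0.15 (adjusted p = 0.94). The lymphomas differed in sign, with 0.35, 0.02 and -0.71 for Myc and 0.32, 1.66 and -1.54 for Bcl2 in 4146, 4936 and 5043. Whether their probe sets read the transgenes was not tested.

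Of the interferon response genes 0 of 29 rose and 1 fell, beside 2.0% and 2.02% of all genes. The falling gene, Rsad2, the antiviral enzyme viperin, had 6.64, 6.48 and 5.98 in big outgrowth, against 9.36, 7.27 and 8.35 in ADR+4-OHT 5 d (-1.96 ± 0.36, adjusted p = 0.0253), and it did not pass without the big outgrowth of 5043 (adjusted p = 0.101). Its levels in big outgrowth were near those of untreated cells, 6.46, 5.71 and 6.55. The list's median was -0.47, and 25 of 29 changes were below 0, beside 51.3% of all genes. Gbp2, an interferon-induced GTPase, was at 6.41, 6.79 and 5.63 in big outgrowth and at 10.68, 8.52 and 8.62 in ADR+4-OHT 5 d, groups that did not overlap (-2.99 ± 1.03, adjusted p = 0.112).

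Other falling genes were of varied function. Eqtn, an acrosomal membrane protein known from sperm, had 4.67, 5.31 and 3.54 in big outgrowth, against 6.78, 7.88 and 9.11 in ADR+4-OHT 5 d (-3.41 ± 0.63, adjusted p = 0.0253). Ms4a4b and Ms4a4c, membrane proteins of the MS4A family, changed by -2.50 (adjusted p = 0.0195) and -2.14 (adjusted p = 0.0389). Ms4a4b was under 4.86 on all big outgrowth arrays, at 3.62, 3.21 and 3.22, against 6.33, 5.14 and 6.07 in ADR+4-OHT 5 d, which leaves a fall of at least 0.99. Pik3r3, a regulatory subunit of PI3 kinase, changed by -2.50, Cyria, an actin regulator, by -2.11 and Mcm9, a helicase of repair, by -1.99. The others of the 12 largest falls were Apof (-1.98), 8430429K09Rik (-1.82), Ccdc38 (a fall of at least 0.49, since it was under 4.86 on all big outgrowth arrays), Rbm45 (-1.80) and 3110001I22Rik (-1.74). Ms4a4b and Cyria passed without the big outgrowth of 5043 (adjusted p = 0.0425 and 0.0322), and the other 10 did not.

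In the unfolded protein and ATF4 list 3 of 36 rose and 0 fell, beside 2.0% and 2.02% of all genes. Its median of 0.49 was alike in the 3 lymphomas (0.53, 0.47 and 0.57). Hsp90b1, the chaperone GRP94 of the endoplasmic reticulum, had 12.74, 12.92 and 12.73 in big outgrowth and 11.93, 12.30 and 11.83 in ADR+4-OHT 5 d (0.78 ± 0.15, adjusted p = 0.0253). Atf4, a transcription factor of the amino acid response, and Aldh18a1, an enzyme of proline synthesis, changed by 0.75 (adjusted p = 0.0492) and 0.78 (adjusted p = 0.0364). The ribosome biogenesis list had 1 of 40 lower, beside 2.02% of all genes. It was Polr1a, the large subunit of RNA polymerase I (-1.05 ± 0.24, adjusted p = 0.0404). The median of the list was -0.51, and 34 of 40 changes were below 0, beside 51.3% of all genes. Without the big outgrowth of 5043 neither list had a call, and the adjusted p of Hsp90b1, Atf4, Aldh18a1 and Polr1a was 0.0963, 0.137, 0.128 and 0.142.

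In the stem and progenitor list 2 of 12 rose, Klf4, a pluripotency factor also expressed in mesenchymal and myeloid cells, and Cd34, a surface marker of blood progenitors and of stromal cells. Klf4 had 7.06, 8.0 and 5.54 in big outgrowth and 4.20, 4.23 and 4.10 in ADR+4-OHT 5 d, a rise of at least 2.01, and it passed without the big outgrowth of 5043 and without both doubtful arrays (adjusted p = 0.0265 and 0.0347). Cd34 had 5.52, 7.36 and 3.88 in big outgrowth and 3.32, 3.43 and 3.33 in ADR+4-OHT 5 d, a rise of at least 0.73. Both passed the filter only with the big outgrowth arrays and so had to be high on at least some of them. The filter was not redone when arrays were left out, so passing there is not separate support. The list's median was -0.07, and 2.0% of all tested genes were higher. In the Wnt list 1 of 25 rose and 1 fell, beside 2.0% and 2.02% of all genes. Dvl1, a signal transducer, rose (1.42, adjusted p = 0.0486), while Gsk3b, a kinase that restrains the pathway, fell (-1.06, adjusted p = 0.022). Without the big outgrowth of 5043 neither passed (adjusted p = 0.169 and 0.058).

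No member passed among 25 NF-kB, 32 glycolysis and hypoxia, 38 oxidative phosphorylation, 31 cholesterol and fatty acid synthesis, 14 lipid, 33 H3K9 methylation and heterochromatin, 24 B-cell, 8 plasma cell, 13 MHC class II, 19 macrophage, 9 T and NK cell and 5 endothelial and erythroid genes (limma). Of the 247 different genes of these 12 lists, 43 (17.4%) had an unadjusted p under 0.05, a smaller share than the 23.4% of all genes. Suv39h2, the related methyltransferase, changed by 0.46 (adjusted p = 0.295). The lysozyme genes Lyz1 and Lyz2, macrophage enzymes, were lower by value, at -2.71 and -2.66 (adjusted p = 0.193 and 0.191). Lyz2 had 7.93, 7.23 and 7.5 in big outgrowth and 10.17, 12.55 and 7.93 in ADR+4-OHT 5 d, against 4.94, 5.84 and 2.26 in small outgrowth. The macrophage list's median was -0.16, from 0.18, -1.50 and 0.21 in 4146, 4936 and 5043. Of its 19 changes 9 were above 0, beside 48.7% of all genes. Its mean level was 6.08, 5.56 and 6.08 in big outgrowth, against 5.85, 6.63 and 5.86 in ADR+4-OHT 5 d, with 9 of 29 measured members under 4.86 on all 6 arrays, C1qa among the defining markers. Cd68 had 9.22, 8.10 and 8.69 in big outgrowth and 7.98, 10.15 and 8.48 in ADR+4-OHT 5 d, and Csf1r, the receptor of a macrophage growth factor, had 6.04, 5.97 and 6.89 in big outgrowth and 6.97, 7.31 and 6.84 in ADR+4-OHT 5 d. Cd14 had 5.43, 4.62 and 6.63 in big outgrowth and 5.71, 5.63 and 4.55 in ADR+4-OHT 5 d, and between 3.41 and 4.0 in untreated cells. Adgre1 had 5.72, 4.44 and 6.32 in big outgrowth, against 4.47, 4.77 and 4.69 in ADR+4-OHT 5 d (0.85, not passing). Itgam had 6.86, 4.29 and 4.89 in big outgrowth, against 4.14, 7.06 and 6.11 in ADR+4-OHT 5 d (-0.43, not passing).

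**Figure D5:**
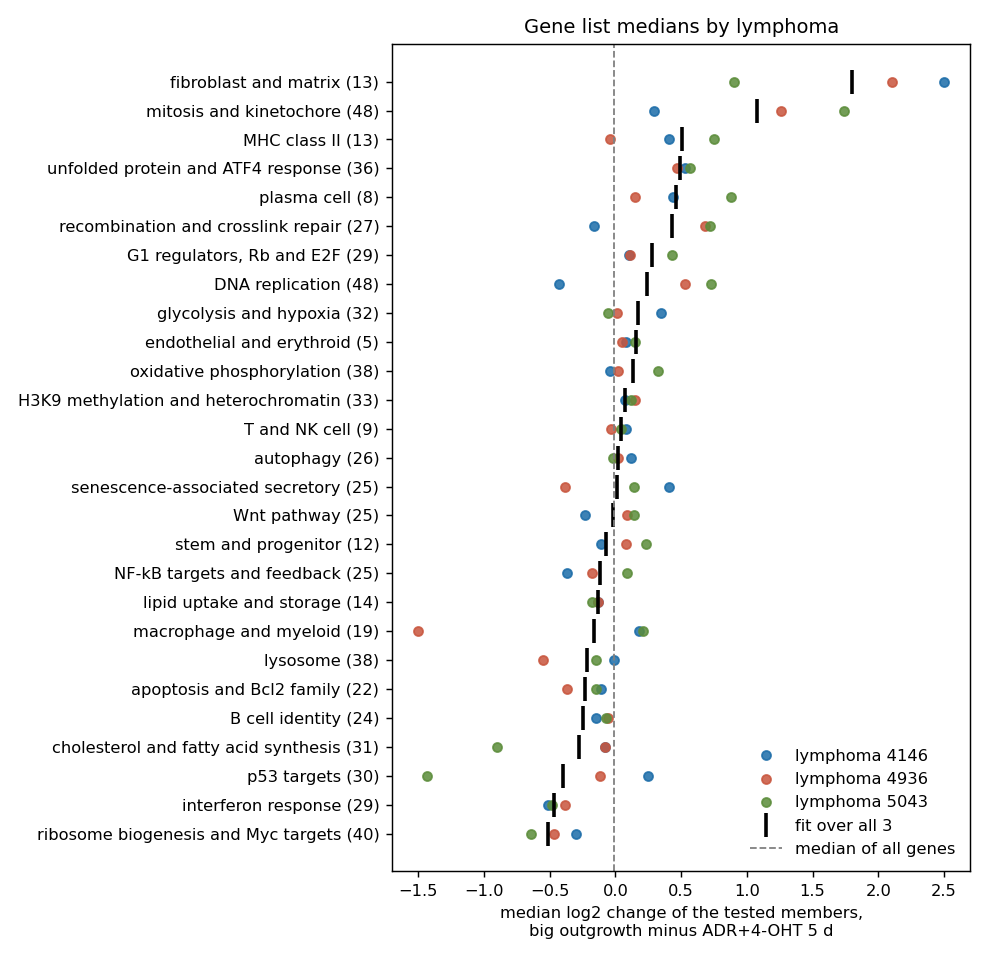
Median log2 change (x axis) of the tested members of 27 gene lists (rows, number tested in brackets), in each lymphoma (points) and in the fit over all 3 (bars); the dashed line is the median of all genes. The fibroblast and matrix list (1.80) and the mitosis list (1.08) lie farthest to the right, and the ribosome biogenesis (-0.51) and interferon lists (-0.47) farthest to the left.

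Whether a change went with the size of the cells was asked by setting the big against the small outgrowth, which also cancels the ADR+4-OHT 5 d arrays. No gene passed (limma, 0 higher and 0 lower), while 1243 had an unadjusted p under 0.05 and the lowest adjusted p was 0.0654. Without the big outgrowth of 5043, 26 genes were higher and 0 lower in big than in small outgrowth. Without that array and ADR+4-OHT 5 d of 4146 together, the counts were 0 and 0. Small outgrowth against ADR+4-OHT 5 d, which shares those arrays, had 316 genes higher (2.66%) and 284 lower (2.39%). The mitosis list's median difference, big minus small, was 0.18, whereas that of the fibroblast and matrix list was 2.08. The macrophage and secretory lists came next, at 1.18 and 1.03, then the glycolysis and hypoxia list at 0.62 and the NF-kB list at 0.56. Fn1 differed by 3.94 between big and small outgrowth, and Emp1 and Klf4, under 4.86 on all small outgrowth arrays, by at least 3.09 and 2.01 (adjusted p = 0.0654 each). Klf4 was in the test only through its big outgrowth values. Bgn had 10.81, 12.01 and 10.65 in big outgrowth, against 8.30, 7.21 and 7.35 in small outgrowth (3.54, adjusted p = 0.0883), and Anln differed by 0.44 (adjusted p = 0.689). Against untreated cells, big outgrowth had 34 genes higher (0.286%) and 15 lower (0.126%). Bgn, Fn1 and Lgals3 were among the 34, with differences of 5.61, 5.55 and 6.49 (adjusted p = 0.0134, 0.0134 and 0.0141).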

How the data were processed

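Total RNA was hybridised to Affymetrix mouse arrays. The authors deposited log2 values of 45101 probe sets, made with RMA, with Partek also named and no versions, per the submitters' processing notes. Within a probe set, the medians of the 3 lymphomas were equal (tolerance 1e-06): differences in level between lymphomas had been taken out before deposit, which the labels do not mention. Of 18 samples, 17 held values; the ADR outgrowth of 5043 held none. Precision is limited by the number of arrays.

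The platform annotation gave 1 symbol to 34958 probe sets; 932 with several and 9211 not listed were left out. Of 18194 genes, 11897 reached 4.86, the median of all values, on at least 3 arrays and were tested. Positions and promoter sequences are those of RefSeq, GRCm38.p6.

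A model with a term per group and a block for lymphoma was fitted to all 17 arrays with limma 3.58.1 in R 4.3.3 (9 residual and 2.53 prior degrees of freedom), with Benjamini-Hochberg adjustment at 0.05. The pairing comes from the labels: arrays of one number are of one lymphoma. It could not be checked on the values, since removing medians pushes arrays of a lymphoma apart (correlation of deviations from group means, same lymphoma, -0.25, -0.03 and -0.21). The script was tested on simulated data. A gene under 4.86 on all arrays of a group has a bound in place of a change.

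The comparison and the 27 gene lists were chosen with earlier results of these data known. Named were Suv39h2, Bcl2, Myc, Cdkn1a, Cdkn2a, Mki67 and Xist, the 12 largest rises and falls that passed with one sign in all lymphomas, and up to 4 passing members per list, or the 2 largest as values. Other genes were named after their values were seen. A gene of the repair list is not reported here. Alternatives changed the block, filter, probe set rule, normalisation, variance model, array weights and the arrays included.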

Additional observations from a re-analysis of the deposited data

How the results depend on the processing

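All 46 named genes that passed kept their direction under the 31 other settings, where 792 of 1420 values passed and 628 did not. They had been chosen as passing and had one sign in every lymphoma. Refits of the same arrays could hardly reverse that sign, so the kept direction is not separate support. Of 43 named genes that did not pass, 25 of 1331 values changed sign and 46 passed. Without the block for the pairing by lymphoma, 429 genes were higher and 491 lower in big outgrowth than in ADR+4-OHT 5 d, and 11 and 19 in big than in small outgrowth. With arrays weighted by quality the counts were 1088 and 1368, and 133 and 128. With the compared arrays alone, which leaves fewer residual degrees of freedom, they were 0 and 0, with 2482 genes at an unadjusted p under 0.05. Leaving out a single lymphoma gave 0 and 0 (4146), 7 and 7 (4936) and 0 and 0 (5043). Without the 3 arrays that stood apart the counts were 57 and 15, with 3 and 0 against small outgrowth, and without ADR+4-OHT 5 d of 4146 as well 34 and 8, with 2 and 0. Without the big outgrowth of 5043 and ADR+4-OHT 5 d of 4146, added after seeing the data, they were 54 and 8, with 0 and 0 against small outgrowth. Leaving out each of the 17 arrays in turn, also added then except for the big outgrowth of 5043, gave 0 to 364 higher and 0 to 435 lower, and 0 to 26 higher and 0 to 1 lower against small outgrowth. The causes of these shifts in count were not tested.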

Other observations

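Ranked by p-value in place of size, which was done after the values were seen, the comparison led with genes of moderate change. H2ax, the histone variant that is phosphorylated at DNA breaks, had 10.04, 10.28 and 9.82 in big outgrowth, against 8.80, 8.55 and 8.72 in ADR+4-OHT 5 d (1.36 ± 0.16, limma, adjusted p = 0.0165). Terf1, a protein of telomeric DNA, had 8.01, 8.51 and 8.24 in big outgrowth, against 7.07, 7.04 and 6.71 in ADR+4-OHT 5 d (1.31, adjusted p = 0.0181). Terf2ip, the telomere protein RAP1, went the other way, at 6.37, 6.27 and 6.23 in big outgrowth and 7.22, 7.15 and 7.11 in ADR+4-OHT 5 d (-0.87, adjusted p = 0.0181). Mllt3, a chromatin reader of the super elongation complex, rose by 1.84 (adjusted p = 0.0165), and Cdkn3, a phosphatase of cyclin-dependent kinases, by 1.55 (adjusted p = 0.0181). Setd7, a lysine methyltransferase, Pus3, a pseudouridine synthase, and Map3k7, the kinase TAK1, changed by -1.26, -1.43 and -1.62 (adjusted p = 0.0165, 0.0165 and 0.0181). All 8 passed without the big outgrowth of 5043 (adjusted p from 0.0265 to 0.0337). Without ADR+4-OHT 5 d of 4146 as well, Terf2ip, Mllt3 and Cdkn3 did not (0.0732, 0.0541 and 0.0594). The 8 had been chosen for low p-values in the fit of all arrays, which shares most arrays with these refits. Their passing is therefore not separate support. Of all 478 calls, 61 were kept without the big outgrowth of 5043.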
